A study of Mus musculus with 12 samples.

Results

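NRF2 antioxidant target genes were examined in mouse embryonic fibroblasts (MEFs) with and without RTF2, a protein that travels with the DNA replication machinery. The members are Nqo1, Hmox1, Gclc, Gclm, Txnrd1, Srxn1, Gsta4, Gstm1, Prdx1 and Sqstm1, 10 of the 24100 genes in the deposited count table, chosen by name as textbook targets of NRF2. RNA came from SV40-immortalized MEFs of 2 lines. The study reports in general that it used littermate MEFs and several lines from separate mothers. It does not name the mothers of these 2 lines. In each line, WT cells were Rtf2+/+ and RTF2-deficient cells were Rtf2-/lox, with 1 Rtf2 allele already deleted and the other flanked by loxP sites. These genotypes were present before Cre, so the WT and RTF2-deficient cells of a line came from different embryos. Embryo and genotype therefore cannot be told apart within either line. WT and RTF2-deficient cells alike received a Cre retrovirus 72 hrs before harvest, so exposure to Cre was shared by all 4 groups. Each group held 3 libraries, 12 in all, which the study calls technical replicates, so that every p-value here measures the spread between such libraries within 2 lines.

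NRF2, the product of Nfe2l2, is a transcription factor that the adaptor KEAP1 holds at a low level by handing it to a ubiquitin ligase. When electrophiles or oxidants modify KEAP1, NRF2 accumulates, pairs with a small MAF protein and binds antioxidant response elements near its targets, while BACH1 competes for the same elements. The targets make glutathione, reduce thioredoxin and peroxiredoxins, detoxify quinones and other electrophiles, break down heme and, through SQSTM1, mark cargo for autophagy.

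The antioxidant response element has the core TGACNNNGC, where N is any base, and the sequences below are shown because they place this core near the starts of members. Both strands were searched in RefSeq promoter windows of the GRCm38.p6 build, each running from 250 bases before to 50 bases after a gene's start. The core was present in 12.4% of all 32851 windows and in 14% of the 27025 genes with a window. Of the 10 members, 7 had at least 1 window, and the core lay in a window of 4 of them, Gclm, Txnrd1, Srxn1 and Prdx1. The windows of Nqo1, Gstm1 and Sqstm1 did not hold these letters, and Hmox1, Gclc and Gsta4 had no entry. Among the further pathway genes described below, 86 had a window and 19 of them (22.1%) held the core, and of these G6pdx is shown because it is described with its values. The stretches read 5′ to 3′ along the gene, with the core in capitals as its reverse complement, and all were taken from RefSeq.
Prdx1, chr4:116685426-116685514, + strand: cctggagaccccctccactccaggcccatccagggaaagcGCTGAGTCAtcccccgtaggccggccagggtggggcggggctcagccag
Gclm, chr3:122245383-122245471, + strand: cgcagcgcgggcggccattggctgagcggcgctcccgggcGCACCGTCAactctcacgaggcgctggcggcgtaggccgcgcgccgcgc
Txnrd1, chr10:82859074-82859162, + strand: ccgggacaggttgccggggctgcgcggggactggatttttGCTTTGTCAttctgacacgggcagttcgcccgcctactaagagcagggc
Srxn1, chr2:152105542-152105570, + strand: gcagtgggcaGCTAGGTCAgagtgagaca
G6pdx, chrX:74428889-74428977, - strand: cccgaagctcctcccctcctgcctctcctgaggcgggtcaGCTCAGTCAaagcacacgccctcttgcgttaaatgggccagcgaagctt
Positions are counted from the start that each window uses, which for Gclm is base 122245557, inside the gene's annotated span. The first base of the core stood at position -133 from the start of Prdx1, -134 from that of Gclm, -92 from 1 of 3 starts of Txnrd1, 29 bases into Srxn1 and -57 from the start of G6pdx. In Prdx1 the core overlapped an AP-1 site, searched as TGANTCA on both strands and present in 7.81% of all windows. The Srxn1 window also held an AP-1 site. A match of letters is a description and does not show that a factor was bound.

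Library totals lay between 39360167 and 44695002 counts. Of the genes in the table, 14263, all 10 members among them, had enough counts to be tested. Levels are given as CPM, a gene's count scaled to a library size that is the same for all libraries, after TMM normalization, and differences as log2 fold changes of RTF2-deficient over WT with a 95% interval, from the quasi-likelihood test of edgeR, with p-values adjusted by Benjamini and Hochberg's method over all genes tested. A gene passed at an adjusted p under 0.05. Rtf2 itself, the check of the labels, lay between 44.8 and 57.8 CPM in the 6 WT libraries and between 5.44 and 6.66 CPM in the 6 RTF2-deficient libraries. Fibroblast markers (10 genes such as Col1a1 and Vim) summed to 19600 to 31800 CPM. Levels within this list differed widely, with Col1a1 at 4850 to 9490 CPM, Pdgfra at 3.49 to 21.7 CPM and Dcn at 0.392 to 2.1 CPM. Macrophage markers (8 genes) summed to 4.81 to 13.9 CPM, with Ptprc, Adgre1, Itgam, Tyrobp and Fcer1g under 1 CPM in every library. Endothelial markers (6 genes) summed to 10.8 to 21.6 CPM, epithelial markers (6 genes) to 22.7 to 91.2 CPM and muscle markers (6 genes) to 9.14 to 31.7 CPM. Erythroid markers (5 measured genes) stayed at or under 0.396 CPM, with Hbb-bs and Hbb-y at 0 in all libraries. Several summed levels did not overlap between genotypes, as was the case for 21.1% of all genes tested in line 1 and 29.5% in line 2. The muscle sums came mainly from Des and Tnnt2, and the erythroid sums mainly from Alas2. In line 2 muscle markers stood at 24.8 to 31.7 CPM in RTF2-deficient cells and 9.14 to 12.1 CPM in WT, macrophage markers at 7.82 to 8.47 and 10.3 to 13.9 CPM, and fibroblast markers at 21600 to 24500 and 19600 to 21500 CPM. In line 1 endothelial markers stood at 17.7 to 21.6 CPM in RTF2-deficient cells and 10.8 to 14.8 CPM in WT, macrophage markers at 4.81 to 5.51 and 5.7 to 6.97 CPM, and erythroid markers at 0.167 to 0.195 and 0.215 to 0.396 CPM. Their part in the members' values was not tested. WT line 2 stood apart in sex-linked genes, with Xist between 0.0217 and 0.132 CPM and Ddx3y between 91.8 and 107 CPM, where the other 9 libraries had Xist between 103 and 173 CPM and Ddx3y at or under 0.195 CPM. In line 2, the sex of the embryos and the genotype therefore cannot be told apart. In bulk RNA, fewer cells of a type and less RNA per cell cannot be told apart either.

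Levels of different members were compared per kilobase of exon. Prdx1, a peroxiredoxin that removes hydrogen peroxide, was the most abundant at 164 ± 19.3 CPM per kilobase (SD, n = 12), followed by Sqstm1, an autophagy receptor, at 103 ± 11. Txnrd1, the cytosolic thioredoxin reductase, at 50.5 ± 6.79 and Hmox1, which degrades heme, at 50 ± 15.8 had overlapping ranges. Nqo1, a quinone reductase, was at 16.6 ± 4.19, Srxn1, which repairs overoxidized peroxiredoxins, at 13.3 ± 2.23, Gclc, the catalytic subunit of glutamate-cysteine ligase, at 11.6 ± 0.745, Gstm1, a glutathione transferase, at 10.6 ± 3.06 and Gclm, the modifier subunit of that ligase, at 6.86 ± 0.767, and within this stretch each neighbour's range overlapped the next. Gsta4, a glutathione transferase acting on lipid aldehydes, was lowest at 1.04 ± 0.302 CPM per kilobase and did not overlap Gclm.

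**Figure D1:**
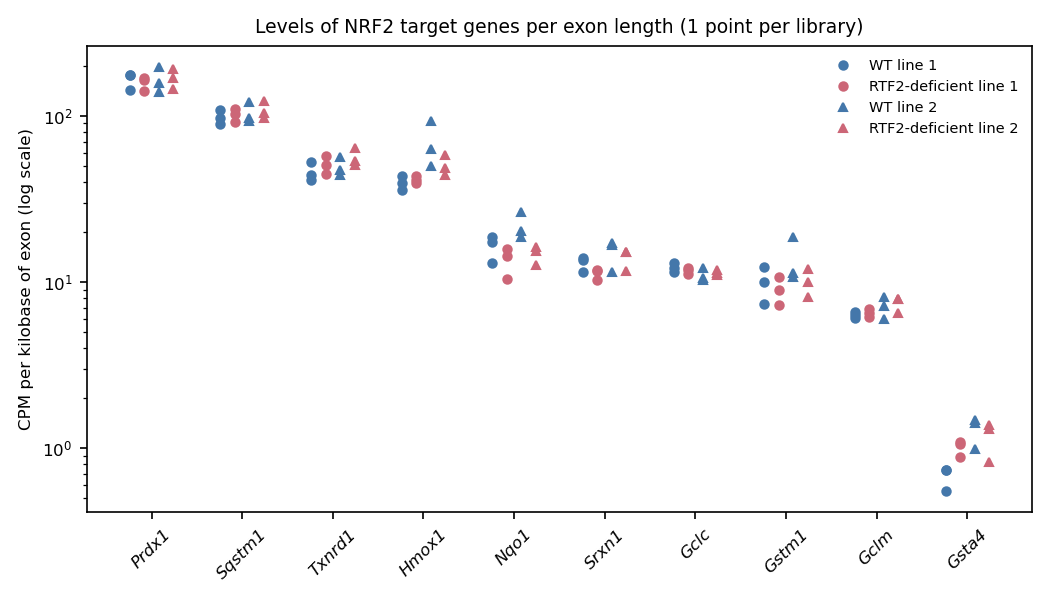
Level of each NRF2 target gene in CPM per kilobase of exon on a log axis, with 1 point per library, circles for line 1 and triangles for line 2. The 10 genes run from Prdx1, at 139 to 198, down to Gsta4, at 0.553 to 1.48.

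With both lines in the fit, none of the 10 members passed the test for an effect of genotype, where 13.2% of all genes tested did. Nqo1 came nearest, with a level in RTF2-deficient cells that was 0.748 of the WT level and an adjusted p of 0.0647. The members' log2 fold changes ran from -0.42 for Nqo1 to 0.21 for Gsta4, with a median of -0.01, beside a median of 0.00 (0.002) over all genes tested. At an unadjusted p under 0.05 the same edgeR fit called 4070 genes, among them 1 member, Nqo1. No member came near the added fold threshold of the study (log2 fold change beyond 1), which 1.74% of all genes passed together with the adjusted p. With 1 library left out, the Gsta4 value over both lines ran from 0.113 to 0.338.

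Nqo1 (chr8:107388225-107403205) was the member with the largest log2 fold change in size over both lines. In line 1 that of Gsta4 was larger. The level of Nqo1 in WT line 1 was 28.9, 20.2 and 27.2 CPM in replicates 1 to 3, and in RTF2-deficient line 1 it was 24.5, 16.2 and 22.3 CPM. In line 2 it was 29.0, 31.4 and 41.1 CPM in WT and 19.7, 23.9 and 25.3 CPM in RTF2-deficient cells. The groups overlapped in line 1 and did not in line 2 (nor did those of 29.5% of all genes tested), where the highest RTF2-deficient value, 25.3 CPM, was under the lowest WT value, 29.0 CPM. The log2 fold change over both lines was -0.42 (95% interval -0.72 to -0.12). Within lines it was -0.28 (-0.70 to 0.14, adjusted p = 0.612) in line 1 and -0.56 (-0.98 to -0.14, adjusted p = 0.0835) in line 2, and the difference between the lines did not pass (adjusted p = 0.957). With 1 library left out, the line 1 value of Nqo1 ran from -0.43 without WT line 1 replicate 2 (adjusted p = 0.449) to -0.13 without RTF2-deficient line 1 replicate 2 (adjusted p = 0.917). The call for Nqo1 lay near the threshold, since DESeq2 gave an adjusted p of 0.028 over both lines and edgeR gave 0.0286 when WT line 1 replicate 2 was left out and 0.0375 when replicate 1 of RTF2-deficient line 1 was. Over both lines Nqo1 passed in 3 of 10 other settings. These were DESeq2, limma's voom and a fit with the replicate number as a block in line 1 only, described in the closing section.

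Taken line by line, again 0 of 10 members passed in line 1, where 3.2% of all genes did, and 0 of 10 in line 2, where 12.5% did. No member passed the test of the difference between the lines, which 1.29% of all genes passed. At an unadjusted p under 0.05, edgeR called Gsta4 in line 1, Nqo1 and Hmox1 in line 2, and no member for the difference, and DESeq2 at its adjusted p called 0 members in line 1, 1 in line 2 (Nqo1) and 0 for the difference. In line 1, libraries with the same replicate number deviated together from their group means, so a fit with the replicate number as a block was also made for that line alone. With this replicate block, 3 of 10 members passed, which is close to the 29.1% of all genes that passed in the same fit. Nqo1 was lower by 0.28 on the log2 scale (interval -0.39 to -0.17, adjusted p = 0.0034) and lower in 3 of 3 same-numbered comparisons. Srxn1 was likewise lower in 3 of 3, with a log2 fold change of -0.20 (-0.30 to -0.11, adjusted p = 0.00842), and Txnrd1 was higher in 3 of 3, with 0.15 (0.08 to 0.23, adjusted p = 0.00881). The same direction in 3 of 3 was seen for 8 of the 10 members and for 58.7% of all genes tested. Nqo1, Gclc, Srxn1, Gstm1 and Prdx1 were lower and Txnrd1, Gsta4 and Sqstm1 higher in all 3 comparisons, called or not. In the same fit 7 of 10 interferon-stimulated genes were lower in RTF2-deficient cells (list median -0.95) and both tested endothelial markers were higher. All 3 tested muscle markers passed (2 lower, 1 higher), as did 1 of 3 macrophage markers (lower), 1 of 4 epithelial markers (higher) and 2 of 10 fibroblast markers (1 lower, 1 higher). The part of these lists in the members' calls was not tested. The fold changes themselves hardly differed from those without the block, while their intervals were narrower. With the replicate block put across all 12 libraries instead, 0 of 10 members passed by edgeR in line 1. Adjusted p was then 0.547 for Nqo1, 0.628 for Srxn1 and 0.705 for Txnrd1.

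**Figure D2:**
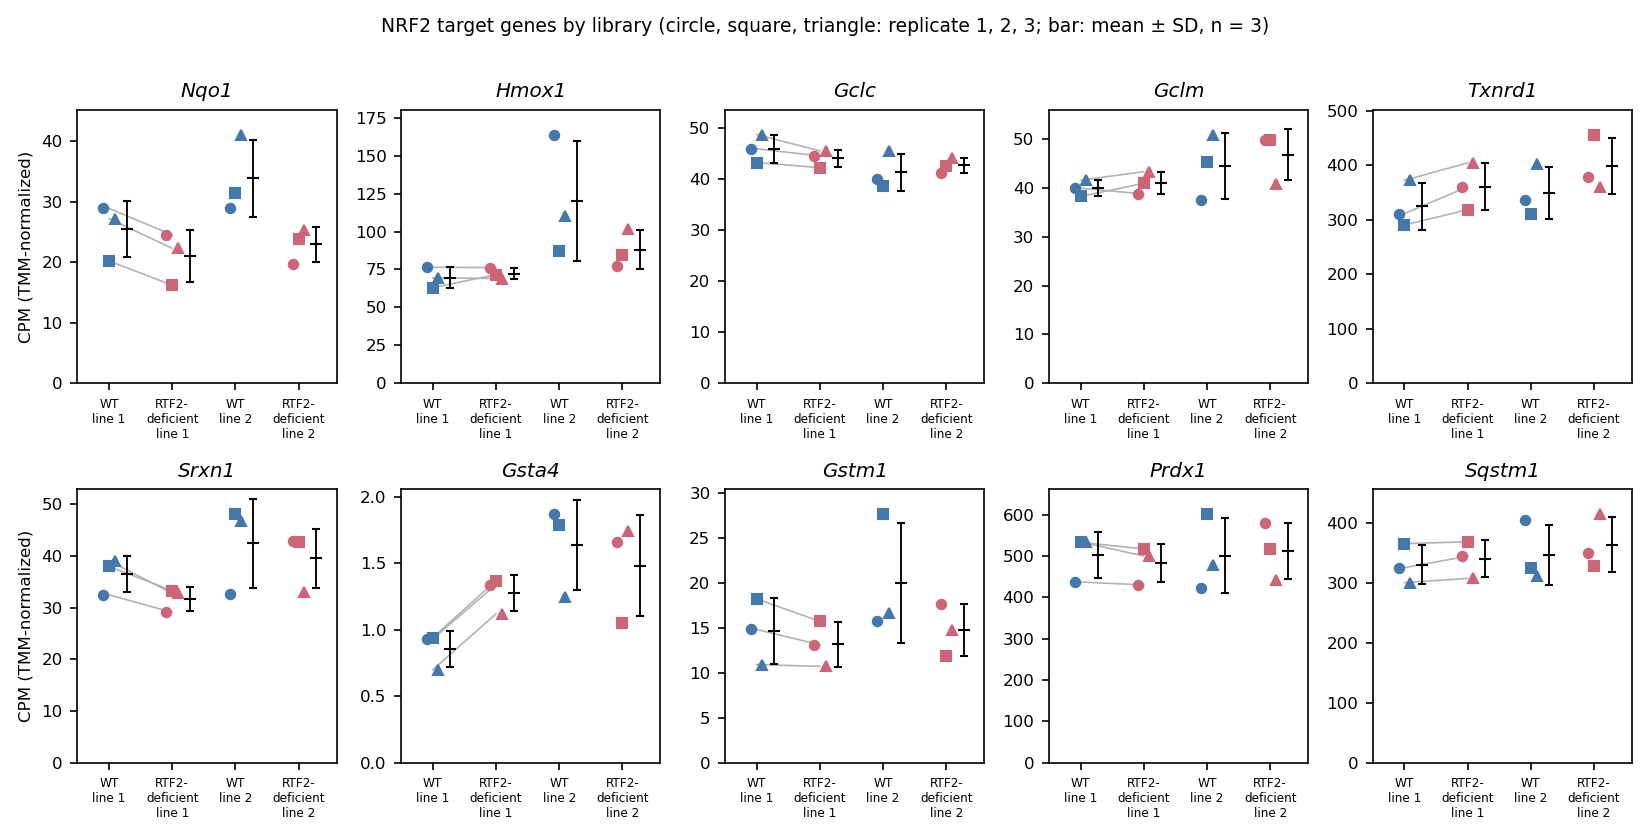
TMM-normalized CPM of the 10 NRF2 target genes by group, with a circle, square and triangle for replicates 1, 2 and 3, grey lines joining same-numbered libraries of line 1, and black bars for the mean ± SD (n = 3). In line 1, 5 members are lower along all 3 grey lines and 3 are higher, and in line 2 Nqo1 is the member whose groups do not overlap.

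None of the thioredoxin and peroxiredoxin members passed over both lines. Txnrd1 (chr10:82833951-82897724) was at 311, 290 and 372 CPM in WT line 1 and 360, 318 and 404 CPM in RTF2-deficient line 1, and at 335, 310 and 402 CPM in WT line 2 and 378, 456 and 360 CPM in RTF2-deficient line 2. The groups overlapped in both lines, and the log2 fold change of 0.17 (-0.03 to 0.38) had an adjusted p of 0.254. Srxn1 (chr2:152105524-152111376) was at 32.5, 38.0 and 39.1 CPM in WT line 1 and 29.1, 33.3 and 32.8 CPM in RTF2-deficient line 1. In line 2 it was at 32.6, 48.1 and 46.8 CPM in WT and 42.9, 42.7 and 33.0 CPM in RTF2-deficient cells, again overlapping. Its log2 fold change over both lines was -0.15 (-0.38 to 0.08), and with 1 library left out it ran from -0.223 to -0.096. Prdx1 (chr4:116685599-116700000) was at 437 to 534 CPM in WT line 1, 430 to 517 CPM in RTF2-deficient line 1, 423 to 601 CPM in WT line 2 and 443 to 579 CPM in RTF2-deficient line 2. Its fold change of 0.993 had an interval from 0.853 to 1.16.

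Both subunits of glutamate-cysteine ligase, the first enzyme of glutathione synthesis, gave fold changes close to 1. Gclc (chr9:77754535-77794489) ranged from 38.7 to 48.8 CPM over all 12 libraries, and its fold change of 0.994 had an interval of 0.916 to 1.08, the narrowest of the 10 members. Gclm (chr3:122245487-122267215) ranged from 37.5 to 51.0 CPM, with a fold change of 1.04 and an interval of 0.923 to 1.17. At the depth of these libraries, a genotype effect on either subunit beyond those bounds lay outside the 95% interval. Gclm overlaps the genes Gm17494 and Gm6061, Txnrd1 overlaps Eid3, and Sqstm1 overlaps Mrnip on the other strand. Whether the counting used strand is not given in the sources used here.

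Of the glutathione transferases, Gsta4 was at a low level and Gstm1 scattered widely within groups. Gsta4 (chr9:78191966-78209349) had between 29 and 86 counts per library. It was at 0.931, 0.941 and 0.7 CPM in WT line 1 and at 1.34, 1.37 and 1.12 CPM in RTF2-deficient line 1, groups that did not overlap, as for 21.1% of all genes tested. In line 2 it was at 1.87, 1.79 and 1.25 CPM in WT and 1.66, 1.05 and 1.74 CPM in RTF2-deficient cells, which overlapped. The log2 fold change was 0.58 in line 1 (0.02 to 1.14, adjusted p = 0.342; 0.064 with the replicate block) and -0.14 in line 2 (-0.68 to 0.40), and the test of the difference between lines, -0.71 (-1.49 to 0.06), gave an adjusted p of 0.657. Gstm1 (chr3:108012250-108017973) ranged from 10.7 to 18.2 CPM in line 1 and from 11.9 to 27.6 CPM in line 2, with WT line 2 replicate 2 the highest of the 12 libraries. Its log2 fold change was -0.30 (-0.69 to 0.09) over both lines, and without that library it was -0.14 (adjusted p = 0.561). Both have close paralogs, so reads could have been divided among family members in counting.

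Hmox1 (chr8:75093618-75100593) stood out by a single library of WT line 2. It was at 76.4, 63.0 and 69.5 CPM in WT line 1 and 76.2, 71.5 and 69.0 CPM in RTF2-deficient line 1, which overlapped. In line 2 it was at 164, 87.0 and 110 CPM in WT and 77.0, 84.8 and 102 CPM in RTF2-deficient cells, also overlapping, and WT line 2 replicate 1 stood far above the rest. The log2 fold change was 0.05 (-0.37 to 0.48) in line 1 and -0.45 (-0.87 to -0.02, adjusted p = 0.156) in line 2, where it passed only when WT line 2 replicate 2 was left out (-0.63, adjusted p = 0.0399). Without the high library, WT line 2 replicate 1, the line 2 value of Hmox1 was -0.15 (adjusted p = 0.533). The same WT line 2 replicate 1 had the highest level of 10 interferon-stimulated genes, with a median of 9.41 log2 CPM against 5.1 and 7.15 in the other WT line 2 libraries and 0.536 to 7.81 elsewhere, and the part of this in the Hmox1 value was not tested. Sqstm1 (chr11:50200152-50210820) ranged from 300 to 368 CPM in line 1 and from 311 to 414 CPM in line 2, with a fold change of 1.04 over both lines and an interval of 0.912 to 1.19.

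**Figure D3:**
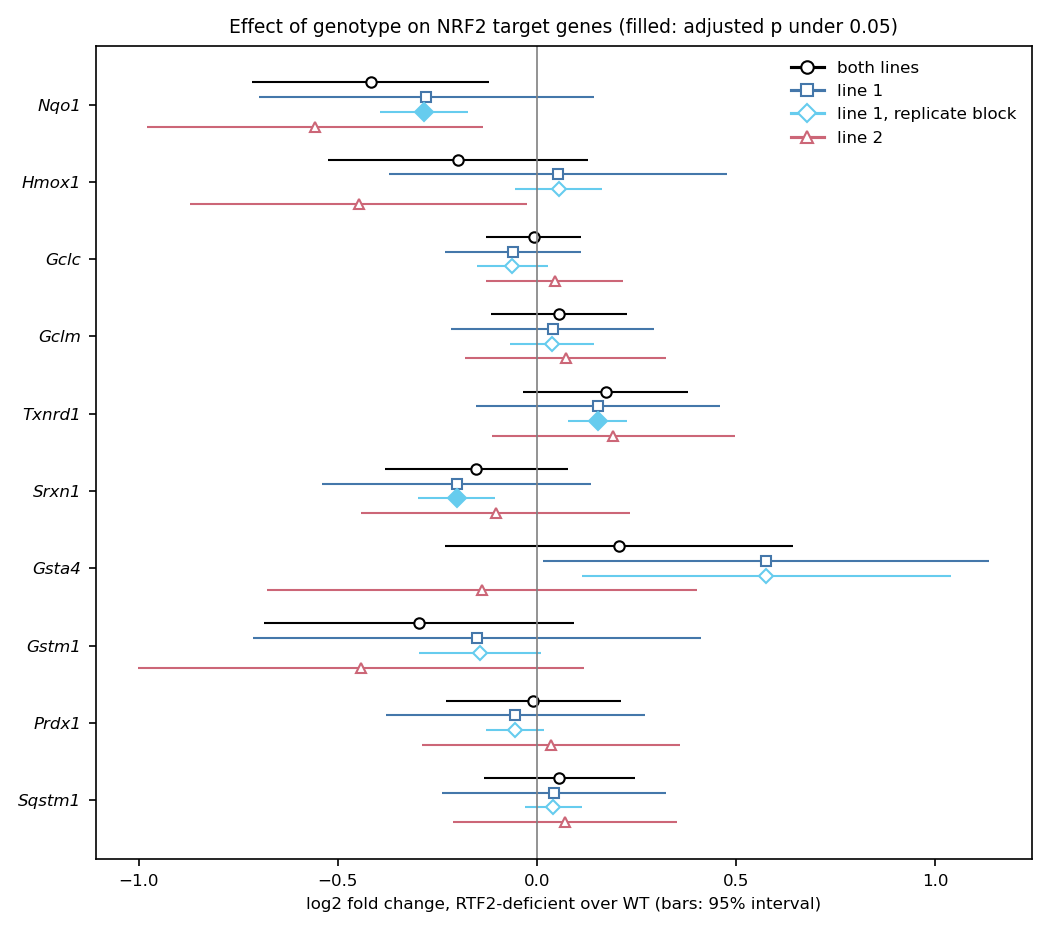
Log2 fold change of each member, RTF2-deficient over WT, with its 95% interval, for both lines together, line 1, line 1 with the replicate block and line 2, and with filled symbols where the adjusted p was under 0.05. Filled symbols are found only for Nqo1, Txnrd1 and Srxn1 in line 1 with the replicate block.

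Differences between the WT lines served as a yardstick. The WT lines also differed in Xist and Ddx3y and in the interferon-stimulated genes, 4 of 10 of which were higher in line 2 with a list median of 4.85, so line and the sex of the embryos cannot be told apart here. In WT line 2, 3 of 10 fibroblast markers and 2 of 3 tested muscle markers were lower, and 2 of 6 epithelial and 1 of 4 tested macrophage markers higher. The part of the interferon-stimulated genes and of these markers in the members' values was not tested. Hmox1 and Gsta4 were higher in WT line 2 than in WT line 1, making 2 of 10 members beside 14% of all genes. The log2 fold change of line 2 over line 1 was 0.79 for Hmox1 (0.36 to 1.21, adjusted p = 0.0204) and 0.93 for Gsta4 (0.38 to 1.49, adjusted p = 0.0323). For both, every WT line 2 library lay above every WT line 1 library, as was also the case for Nqo1, whose 0.41 did not pass (adjusted p = 0.19). Groups that did not overlap were thus found for 3 of 10 members and for 30.2% of all genes tested. With 1 library left out, the Nqo1 value ran from 0.228 to 0.496 (edgeR adjusted p from 0.167 to 0.534). Without WT line 2 replicate 1 the Hmox1 value was 0.49 (adjusted p = 0.0457). The Hmox1 call was lost without WT line 1 replicate 2 (0.70, adjusted p = 0.0866) or WT line 1 replicate 3 (0.77, adjusted p = 0.0599). The Gsta4 call was lost without any of WT line 1 replicates 1, 2 or 3, WT line 2 replicates 1 or 2, or RTF2-deficient line 1 replicate 2, with adjusted p-values between 0.0504 and 0.109. Of the 10 genes that control NRF2, 2 were lower in WT line 2, beside the 14% of all genes that differed. They were the small MAF gene Maff, at 41.7, 45.9 and 48.8 CPM in line 1 and 33.6, 28.6 and 27.9 CPM in line 2 (log2 fold change -0.60, adjusted p = 0.0016), and Bach1, a repressor of Hmox1 and other targets, at 66.4, 65.7 and 57.2 CPM in line 1 and 40.9, 49.4 and 52.6 CPM in line 2 (log2 fold change -0.40, adjusted p = 0.0225). Nfe2l2 lay at 116 to 130 CPM in WT line 2 and 106 to 107 CPM in WT line 1. Keap1 lay at 60.5 to 63.2 and 52.8 to 60.3 CPM. Both were thus higher in WT line 2, and neither passed. The part of the control genes in the members' values was not tested. Between the RTF2-deficient lines, 0 of 10 members passed, where 1.94% of all genes did, and edgeR at an unadjusted p under 0.05 and DESeq2 also called 0.

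The members did not vary as a block across the 12 libraries. As a description over libraries that share groups and lines, Pearson's r of log2 CPM between members ran from -0.779 for Gclc and Gsta4 to 0.781 for Gclm and Srxn1. Among 9280 tested genes with a mean over 10 CPM (9281 for Gsta4, itself below that mean), the gene most like Prdx1 was Txn1, thioredoxin, at r = 0.968. The most alike gene was Recql4 for Nqo1 (r = 0.939), Ddx24 for Hmox1 (0.984), Gstcd for Gclc (0.93), Orc5 for Gclm (0.901) and Ndc1 for Txnrd1 (0.967). It was Plau for Srxn1 (0.953), Sft2d2 for Gsta4 (0.898), Sgsh for Gstm1 (0.934) and Ndrg2 for Sqstm1 (0.964).

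The genes that control NRF2 were measured in the same libraries. Nfe2l2, which encodes NRF2, was at 107, 106 and 107 CPM in WT line 1 and 105, 112 and 120 CPM in RTF2-deficient line 1, and at 130, 116 and 123 CPM in WT line 2 and 112, 124 and 118 CPM in RTF2-deficient line 2. The groups overlapped in both lines, with a fold change of 1.01 and an interval of 0.932 to 1.09. Keap1 had a log2 fold change of 0.06 (-0.06 to 0.18) and Bach1 of 0.04 (-0.12 to 0.20). Of the 10 control genes, 0 passed over both lines by edgeR (2 at an unadjusted p under 0.05) and 0 in line 1 (0 unadjusted). In line 2, where 12.5% of all genes passed, 2 of the 10 were higher in RTF2-deficient cells, the small MAF genes Mafg (log2 fold change 0.32, adjusted p = 0.043) and Maff (0.42, adjusted p = 0.0135). For both, WT line 2 was the low group. Mafg had a mean of 20.5 CPM there and 25.1 to 26 CPM in the other groups. Maff had a mean of 30 CPM there and 40.2 to 46.3 CPM in the other groups. For Maff the difference between the lines was 0.39 (0.11 to 0.68, adjusted p = 0.282). In the line 1 fit with the replicate block, where 29.1% of all genes passed, 2 of the 10 rose, Keap1 (0.14, adjusted p = 0.0339) and the small MAF gene Mafk (0.25, adjusted p = 0.00433), the latter named after its values were seen, like Mafg and Maff.

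Among 101 further genes of the pathway, 95 were tested and 10 passed for genotype, 9 lower and 1 higher in RTF2-deficient cells, which is 10.5% beside the 13.2% of all genes. Their median log2 fold change was -0.02. They fell in 5 of the 9 lists, and edgeR called none in the lists of NRF2 control, of cystine uptake and glutathione supply (0 of 9 tested, 1 at an unadjusted p under 0.05), of thioredoxins and peroxiredoxins (0 of 10, 1 unadjusted) and of superoxide dismutases, catalase and metallothioneins (0 of 6, 0 unadjusted).

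NADPH, which glutathione reductase, thioredoxin reductase and NQO1 consume, had 3 of its 10 supply genes fall (30%, beside 13.2% of all genes), with a list median of 0.07. G6pdx, glucose-6-phosphate dehydrogenase at the entry of the pentose phosphate pathway, was at 91.4, 86.0 and 81.7 CPM in WT line 1 and 66.5, 57.5 and 51.6 CPM in RTF2-deficient line 1, and at 87.5, 97.7 and 81.1 CPM in WT line 2 and 60.4, 49.8 and 59.6 CPM in RTF2-deficient line 2. The groups did not overlap in either line. Of all genes tested, 21.1% did not overlap in line 1 and 29.5% in line 2, and no share was taken for both lines at once. The log2 fold change of G6pdx was -0.60 (-0.77 to -0.44, adjusted p = 0.000347), and it passed in line 1 (-0.56, adjusted p = 0.0216) and in line 2 (-0.65, adjusted p = 0.00394). G6pdx is X-linked, and Xist was near 0 in WT line 2 alone and at 103 to 125 CPM in both genotypes of line 1. The part of this in the line 2 value was not tested. G6pdx lies within a region that Ikbkg also covers on the other strand, and Ikbkg had a log2 fold change of -0.07 (-0.20 to 0.06).

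Idh2, the mitochondrial NADPH-producing isocitrate dehydrogenase, was at 172, 195 and 172 CPM in WT line 1 and 112, 118 and 94.8 CPM in RTF2-deficient line 1. In line 2 it was at 109, 183 and 133 CPM in WT and 95.3, 76.3 and 83.0 CPM in RTF2-deficient cells, and the groups did not overlap in either line (shares of all genes as for G6pdx). Its log2 fold change was -0.74 (-0.98 to -0.49, adjusted p = 0.00131), with -0.73 (adjusted p = 0.0411) in line 1 and -0.74 (adjusted p = 0.0156) in line 2. Nadk, the kinase that makes NADP from NAD, had a log2 fold change of -0.44 (-0.73 to -0.15, adjusted p = 0.0487), with 117 to 186 CPM in WT and 92.6 to 133 CPM in RTF2-deficient libraries. The Nadk call was lost when any of WT line 1 replicates 2 or 3, WT line 2 replicates 2 or 3, RTF2-deficient line 1 replicates 1, 2 or 3 or RTF2-deficient line 2 replicates 2 or 3 was left out, with adjusted p-values between 0.0672 and 0.109. Nnt, a mitochondrial transhydrogenase, differed between lines and not by genotype, with a log2 fold change of 0.06 (-0.10 to 0.22) for genotype and 0.49 (adjusted p = 0.0129) for WT line 2 over WT line 1.

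**Figure D4:**
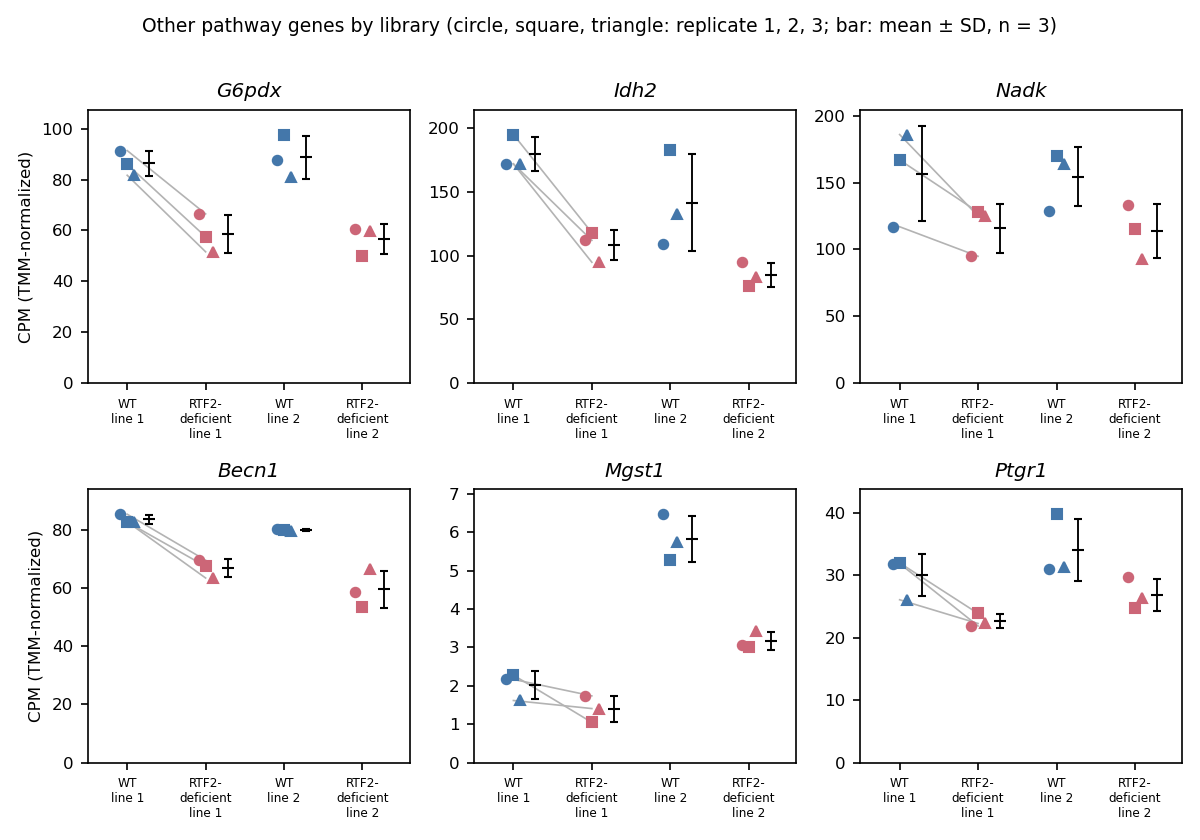
TMM-normalized CPM of 6 other pathway genes by group, with a circle, square and triangle for replicates 1, 2 and 3, grey lines joining same-numbered libraries of line 1, and black bars for the mean ± SD (n = 3). G6pdx, Idh2, Becn1 and Ptgr1 have groups that do not overlap in either line.

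Of the glutathione transferases other than the members, 3 of 16 tested fell, 18.8% beside 13.2% of all genes, and the list median was -0.35 beside 0.00 (0.002) over all genes. Mgst1, a membrane-bound transferase, was at 2.17, 2.28 and 1.62 CPM in WT line 1 and 1.74, 1.05 and 1.41 CPM in RTF2-deficient line 1, which overlapped. In line 2 it was at 6.47, 5.29 and 5.74 CPM in WT and 3.06, 3 and 3.44 CPM in RTF2-deficient cells, which did not, as for 29.5% of all genes tested. Its log2 fold change was -0.71 (-1.03 to -0.39, adjusted p = 0.00805), with -0.53 (adjusted p = 0.259) in line 1 and -0.88 (adjusted p = 0.0141) in line 2. Gstm4 fell by 0.57 (adjusted p = 0.0472) and Gstz1, which also works in tyrosine breakdown, by 0.34 (adjusted p = 0.0196) on the log2 scale. Over both lines the 10 interferon-stimulated genes all had negative log2 fold changes, from -2.31 to -1.16 with a median of -1.70, and 0 of them passed by edgeR (0 at an unadjusted p under 0.05) or by DESeq2. Of the tested marker genes, 1 of 2 endothelial, 1 of 6 epithelial and 1 of 3 muscle markers rose. The part of these lists in the pathway values was not tested. The Gstm4 call was lost when any of WT line 1 replicates 1 or 2, WT line 2 replicates 1, 2 or 3, RTF2-deficient line 1 replicates 2 or 3 or RTF2-deficient line 2 replicates 1 or 2 was left out, with adjusted p-values between 0.0582 and 0.112. The Gstz1 call was lost only without RTF2-deficient line 2 replicate 1 (adjusted p = 0.0521), and Gstz1 overlaps Pomt2 on the other strand.

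In the detoxification list 1 of 12 tested genes passed (8.33%) and in the heme and iron list 1 of 10 (10%), beside 13.2% of all genes. The first, Ptgr1, a reductase of reactive aldehydes and ketones, was at 31.9, 32.0 and 26.1 CPM in WT line 1 and 21.9, 23.9 and 22.3 CPM in RTF2-deficient line 1. In line 2 it ranged from 31 to 39.8 CPM in WT and from 24.7 to 29.7 CPM in RTF2-deficient cells. The groups of Ptgr1 did not overlap in either line (shares of all genes as for G6pdx). Its log2 fold change over both lines was -0.37 (-0.55 to -0.19, adjusted p = 0.0112). In the same list Aox1, an aldehyde oxidase named here after its values were seen, passed in line 1 alone (-1.09, adjusted p = 0.0438) with 0.33 (-0.24 to 0.90) in line 2, and the difference between lines had an adjusted p of 0.114. The call among heme and iron genes was Fech, which inserts iron into heme, with -0.21 (-0.33 to -0.10, adjusted p = 0.0165).

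Among 12 autophagy receptors and partners of SQSTM1, Becn1 fell and Gabarapl1 rose, 16.7% of the list beside 13.2% of all genes. Becn1, a subunit of the lipid kinase complex that starts autophagosomes, was at 85.3, 82.6 and 82.7 CPM in WT line 1 and 69.5, 67.4 and 63.4 CPM in RTF2-deficient line 1, and at 80.1, 79.9 and 79.7 CPM in WT line 2 and 58.5, 53.5 and 66.4 CPM in RTF2-deficient line 2. The groups of Becn1 did not overlap in either line (shares of all genes as for G6pdx). The log2 fold change was -0.37 (-0.49 to -0.26, adjusted p = 0.000842), passing in line 1 (adjusted p = 0.0481) and line 2 (adjusted p = 0.0053). Becn1 overlaps Cntd1 on the other strand, which was at or under 0.764 CPM. Gabarapl1, an ATG8 family protein of the autophagosome membrane, had a log2 fold change of 0.18 (0.07 to 0.29, adjusted p = 0.0332), and the call was lost when any of WT line 1 replicate 1, WT line 2 replicate 3, RTF2-deficient line 1 replicates 1 or 2 or RTF2-deficient line 2 replicates 1 or 2 was left out, with adjusted p-values between 0.0541 and 0.081.

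In line 1 taken alone 4 of the 95 genes passed (4.21%, beside 3.2% of all genes), G6pdx, Idh2, Becn1 and Aox1, all lower. In line 2 there were 8 (8.42%, beside 12.5% of all genes), with Idh2, G6pdx, Mgst1, Gstz1, Fech and Becn1 lower and Mafg and Maff higher. In line 1 with the replicate block 33 of 94 passed, 35.1% beside 29.1% of all genes, 21 lower and 12 higher. No further pathway gene passed the test of the difference between lines.

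**Figure D5:**
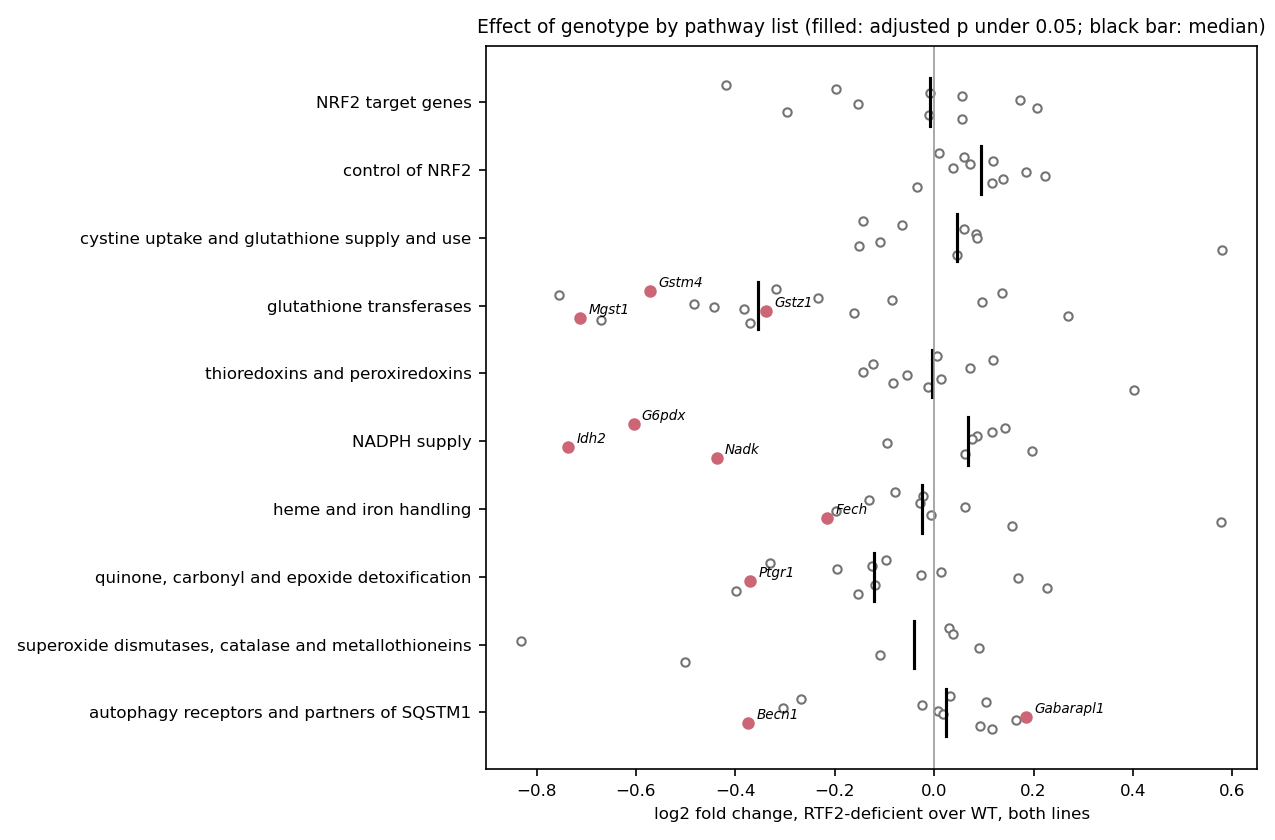
Log2 fold change of RTF2-deficient over WT, both lines together, for each tested gene of the 10 lists, filled where the adjusted p was under 0.05, with a black bar at the median of each list. No NRF2 target gene is filled, and the filled genes furthest to the left are Idh2, Mgst1 and G6pdx.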

How the data were processed

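The authors deposited raw counts of single-end RNA-seq reads per gene, identified by Entrez Gene number, with 1 column per library. The study's methods name Salmon, tximport, UCSC mm10 gene models and DESeq2, whereas HTSeq stands in the submitters' processing notes beside mm10, and which counter made the table was not settled. Symbols and positions came from RefSeq (GRCm38.p6; 24045 of 24100 identifiers) and exon lengths from GENCODE M21. R 4.3.3 with edgeR 4.0.16 was used: filterByExpr on the 4 groups, TMM, then glmQLFit and glmQLFTest on a model of line plus genotype, and contrasts of the 4 groups for each line, the difference between lines and the lines of 1 genotype. Standard errors and 95% intervals follow from the F statistic. The scripts were tested on simulated data. Alternatives used limma 3.58.1 (voom), DESeq2 1.42.0, other normalizations, no filter, no line term, summed libraries, the replicate number as a block and each library left out. No 2 libraries of the same group agreed within sampling noise (chi-square per degree of freedom 20.5 or more).

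Line 1 libraries of the same replicate number correlated in their deviations from group means (r = 0.625, 0.43 and 0.484), so the numbers were taken to pair them, and the blocked fit used for calls covers line 1 only. Counting error limits low genes: 3 counts equal 0.0651 to 0.077 CPM, an upper limit for a count of 0.

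The members, gene lists, marker lists and tests were chosen with earlier results of these data known. Named genes were the 10 members, Rtf2, Nfe2l2, Keap1, Bach1, Nnt, and in each further list up to 3 genes with the largest log2 fold change among those passing for genotype with the same sign in both lines. Genes outside this rule were named where they overlap a named gene, check a label or make up a small count.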

Additional observations from a re-analysis of the deposited data

How the results depend on the processing

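RLE and upper-quartile scaling changed no count of passing genes by more than 1.5 times. Over both lines, 1 member passed with DESeq2, 1 with limma's voom and the group as a random block, and 1 with the replicate block in line 1 only, in each case Nqo1 (adjusted p = 0.028, 0.0165 and 0.0248). In line 2, 1 member, Nqo1, passed with DESeq2 (adjusted p = 0.0405). In line 1 alone with the replicate block, 3 members passed. The further pathway genes numbered 20 with voom, 6 without a term for line and 0 with the libraries of each group summed, a fit of 4 sums in which 0 genes in all passed and 2737 had an unadjusted p under 0.05 by edgeR, and in which Rtf2 was lost as well (adjusted p = 0.102). With the replicate number as a block across all libraries, 0 members and 10 further pathway genes passed, and only the call for Nadk was lost (-0.42, adjusted p = 0.0566). In line 2, libraries of the same number did not deviate together (r = -0.587, 0.17 and -0.279), and WT replicates 1, 2 and 3 correlated more with RTF2-deficient replicates 3, 1 and 2 (r = 0.654, 0.612 and 0.367), so no call was taken from a blocked fit of line 2. The block across all libraries takes in line 2 and gave Nqo1 -0.545 there (edgeR adjusted p = 0.0678). The block in line 1 only left 13 further pathway genes. Nadk was also lost with RLE scaling (adjusted p = 0.0508), Nadk, Gstm4 and Gabarapl1 without the filter (0.0508 to 0.0638), and these and Mgst1 without a term for line (0.0562 to 0.272). Without the filter, Gclc (0.002) and Prdx1 (0 to 3 decimals) changed sign. With 1 library left out, the members passing numbered 0 to 1 over both lines, 0 to 1 in line 2 and 0 to 2 between the WT lines. Values near 0 changed sign with 1 library left out, with ranges of -0.034 to 0.026 for Gclc, -0.058 to 0.053 for Prdx1, -0.019 to 0.042 for Nfe2l2 and -0.011 to 0.076 for Bach1 over both lines, -0.022 to 0.134 for Hmox1 in line 1, -0.288 to 0.064 for Gsta4 in line 2 and -0.028 to 0.246 for Nqo1 between the RTF2-deficient lines. The cause of these shifts was not tested. The voom fit was not run for contrasts of the 4 groups, where the block equals the group. Only 2 lines stood behind every genotype effect, and Gsta4, at 29 to 86 counts a library, was the member most limited by depth.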
